A study of Mus musculus with 12 samples.

Results

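The genes that store, import, export and sense cellular iron are described here through 8 members, out of 20661 genes in the count files. The members were the ferritin subunit genes Fth1 and Ftl1, the ferritin receptor gene Ncoa4, the importer genes Tfrc and Slc11a2, the exporter gene Slc40a1 and the sensor genes Aco1 and Ireb2. They were read by symbol from the counts of 12 libraries. The set was chosen by known roles around Fth1, which had been selected on its TE call between the knockout and the control in an earlier look at these counts. The Fth1 values of that comparison are therefore given as a description without a p-value.

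The libraries came from mouse embryonic fibroblasts (MEFs) at passage 4, with RNA fragments (RNAseq) and ribosome footprints (RiboSeq) measured in 3 groups of 2 replicates. WT-shSCR MEFs were wildtype cells with a scrambled control short hairpin RNA (shRNA), WT-shARF MEFs were wildtype cells with an shRNA against ARF, and Arf-/--shSCR MEFs lacked Arf and had the control shRNA. All groups thus carried a lentiviral shRNA under drug selection. The labels give C57BL/6J for the WT MEFs and B6.129X1-Cdkn2atm1Cjs/KaiJ for the knockout MEFs, while the study's methods give a mixed B6129SF2/J background for WT, so strain and genotype cannot be told apart. In the knockout allele, a neo cassette took the place of exon 1β of Cdkn2a, the exon that only the ARF transcript uses. The labels do not say that replicates were separate cultures, so a p-value measures only the spread between these libraries. With 2 libraries against 2, an exact permutation test could not give a two-sided p under 0.33, so calls came from edgeR, which shares the spread across genes.

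Cells store iron inside ferritin, a shell built of heavy (FTH1) and light (FTL1) chains, take it up through the transferrin receptor (TFRC) and release it through ferroportin (SLC40A1). The iron regulatory proteins IRP1 (ACO1) and IRP2 (IREB2) bind a short stem-loop, the iron-responsive element (IRE), when iron is scarce. A protein bound at an IRE in a 5′ UTR blocks the start of translation of that mRNA, while binding at IREs in a 3′ UTR shields the Tfrc mRNA from decay.

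The stem-loops of the members are shown because they set the ferritin mRNAs apart from the Tfrc mRNA by position. The search took transcripts of the GENCODE annotation of GRCm38 on their own strand and asked for a C, a stem of 5 base pairs (G with T allowed) and the loop CAGTGN with A, C or T last. Each sequence below runs 5′ to 3′ over 29 bases, with the loop in capitals:
Fth1, 5′ UTR, chr19:9982732-9982760, plus strand: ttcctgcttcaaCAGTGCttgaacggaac
Ftl1, 5′ UTR, chr7:45459779-45459807, minus strand: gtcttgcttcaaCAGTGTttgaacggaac
Slc40a1, 5′ UTR, chr1:45925465-45925493, minus strand: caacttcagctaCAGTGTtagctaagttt
Tfrc, 3′ UTR, chr16:32631219-32631247, plus strand: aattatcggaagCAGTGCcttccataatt
Tfrc, 3′ UTR, chr16:32631598-32631626, plus strand: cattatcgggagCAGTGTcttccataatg
Tfrc, 3′ UTR, chr16:32631663-32631691, plus strand: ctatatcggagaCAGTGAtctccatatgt
Tfrc, 3′ UTR, chr16:32631710-32631738, plus strand: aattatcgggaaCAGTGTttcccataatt

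Annotated transcripts of both ferritin genes and of Slc40a1 held the element before the coding sequence, and for Tfrc 4 copies lay after it. Not every coding transcript held them. The match was in 4 of 5 for Fth1, 1 of 2 for Ftl1, 1 of 4 for Slc40a1 and, for each copy, 1 of 3 for Tfrc. Over 21901 annotated genes, the same letters were found in the 5′ UTR of 0.105%, in the 3′ UTR of 0.457% and in the coding sequence of 0.461%. Slc11a2, Aco1, Ireb2 and Ncoa4 had no match, which says only that these letters are not in their annotated transcripts. The 5′ terminal oligopyrimidine (TOP) start that the study is about was also looked for. None of the RefSeq start sites (GRCm38.p6) of the 6 members matched there began with a C and then 4 pyrimidines, against 2.51% of 32851 starts of all genes. Slc40a1 and Slc11a2 were not matched.

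Reads on genes ran from 1578627 to 3989908 in the RNAseq libraries and from 2544319 to 5157572 in the RiboSeq libraries. Cdkn2a, the targeted gene, went against one label. In CPM (reads scaled to a common library size), its RNA was 43.7 and 41.3 in WT-shSCR, 632 and 654 in the WT-shARF libraries, and 27.2 and 31.7 in the knockout. Counts per gene do not separate ARF from INK4A, which Cdkn2a also encodes. The counts therefore do not check the WT-shARF label, while the comparison of Arf-/--shSCR with WT-shSCR MEFs uses none of those libraries. Markers of other cells differed as well. The summed RNA of 18 macrophage markers was 815 and 800 CPM in WT-shSCR, 409 and 319 CPM in WT-shARF and 75.1 and 129 CPM in Arf-/--shSCR MEFs, while 9 fibroblast markers summed to between 13063 and 17012 CPM in every RNAseq library. The globin genes were at 0 in every group and endothelial markers summed to at most 39.0 CPM.

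Ferritin RNA was lower than in WT-shSCR MEFs in both other groups, and ferritin footprints were close to the WT-shSCR level. Fth1 RNA was 0.404 times the WT-shSCR level in the knockout and 0.644 times in the libraries labelled WT-shARF, and Ftl1 RNA was 0.618 and 0.642 times that level. Footprints of both genes were between 0.902 and 1.09 times the WT-shSCR level in both comparisons. CPM here are scaled with edgeR's TMM factors over the 12 libraries, and TE (translation efficiency) is the footprint level relative to the RNA level.

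Fth1 encodes the heavy chain, which carries the ferroxidase site that oxidizes iron for storage. Its place is chromosome 19, plus strand, 9980598 to 9985098 (GRCm38), with a coding length of 567 nt. Fth1 RNA was 267 and 262 CPM in WT-shSCR, 179 and 164 CPM in WT-shARF and 112 and 102 CPM in Arf-/--shSCR MEFs, from counts of 242 to 726 reads. The 3 groups did not overlap, and the knockout libraries were the lowest. Its footprints were 103 and 111 CPM, 113 and 100 CPM, and 113 and 121 CPM in the same order. The footprint levels of the 3 groups lay close together, with the knockout libraries at the upper end.

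In Arf-/--shSCR against WT-shSCR MEFs, the fitted log2 fold change of Fth1 was -1.31 for RNA (95% interval -1.63 to -0.98), 0.13 for footprints (-0.16 to 0.41) and 1.40 for TE (0.99 to 1.81). The higher TE thus came with lower RNA and a footprint interval that spans 0. These intervals do not allow for the choice of Fth1 on its TE call in this comparison. They are a description and not a test, and the TE and RNA changes may be overstated. In the libraries labelled WT-shARF, Fth1 RNA fell by -0.64 ± 0.14 on the log2 scale (± the standard error, edgeR adjusted p = 0.00356). Its TE changed there by 0.63 ± 0.20, which did not pass (adjusted p = 0.364, edgeR), and its footprints by -0.01. The RNA call was lost without WT-shARF replicate 2 (log2 fold change -0.57, adjusted p = 0.134, edgeR). Both comparisons use the same WT-shSCR libraries, so they are not independent of each other or of the choice of Fth1.

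The knockout was also set against the libraries labelled WT-shARF directly. Fth1 RNA was lower in the knockout, with a log2 fold change of -0.68 ± 0.15 (edgeR adjusted p = 0.0247). This call rested on both WT-shARF libraries, since it was lost without replicate 1 (adjusted p = 0.329, edgeR) or replicate 2 (adjusted p = 0.323, edgeR). Fth1 TE was higher by 0.81 (95% interval 0.41 to 1.21) without passing (adjusted p = 0.164, edgeR), though DESeq2 called it (adjusted p = 0.0477). The comparison uses the knockout libraries that chose Fth1.

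Ftl1 encodes the light chain, which helps the iron core form inside the shell. Its place is chromosome 7, minus strand, 45457944 to 45459884, with a coding length of 552 nt. Ftl1 RNA was 3177 and 2819 CPM in WT-shSCR, 1970 and 1892 CPM in WT-shARF and 1805 and 1918 CPM in Arf-/--shSCR MEFs. Both WT-shSCR libraries were above all others, and the WT-shARF and knockout libraries overlapped. Its footprints were 365 and 282 CPM, 309 and 314 CPM, and 314 and 273 CPM in the same order, and all 3 groups overlapped.

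Ftl1 RNA fell in the knockout by -0.69 ± 0.14 on the log2 scale (edgeR adjusted p = 0.00395) and in the libraries labelled WT-shARF by -0.64 ± 0.13 (edgeR adjusted p = 0.00143). The first call was lost without WT-shSCR replicate 1 (adjusted p = 0.0827, edgeR) and the second without WT-shARF replicate 2 (adjusted p = 0.0582, edgeR). Ftl1 footprints changed by -0.15 (95% interval -0.38 to 0.08) and -0.06 (-0.27 to 0.15), and neither passed (adjusted p = 0.409 and 0.805, edgeR). The fitted TE of Ftl1 was higher by 0.52 in the knockout (95% interval 0.17 to 0.87, adjusted p = 0.391, edgeR) and by 0.59 in WT-shARF (0.28 to 0.90, adjusted p = 0.164, edgeR). Neither TE change was called by edgeR, and both were by DESeq2 (adjusted p = 0.0271 and 0.0135). DESeq2 gave no adjusted p for the TE of the other tested members in either comparison. The WT-shARF change also passed without WT-shSCR replicate 1 (adjusted p = 0.00823, edgeR). Ftl1 differed between the knockout and WT-shARF by -0.07 in RNA, -0.10 in footprints and -0.03 in TE, none of which passed.

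Reads that fit several places were not counted, and Ftl1 has near copies in the genome. Of its 28-base coding stretches, 96% occur in other annotated genes, most of them in Ftl1-ps1. For Fth1 the share was 26.2%, over 3 genes, and for Ncoa4 it was 97%, in Gm6768. The other 5 members shared none. The levels of Ftl1 and Ncoa4, and to a lesser extent Fth1, are therefore uncertain.

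**Figure D1:**
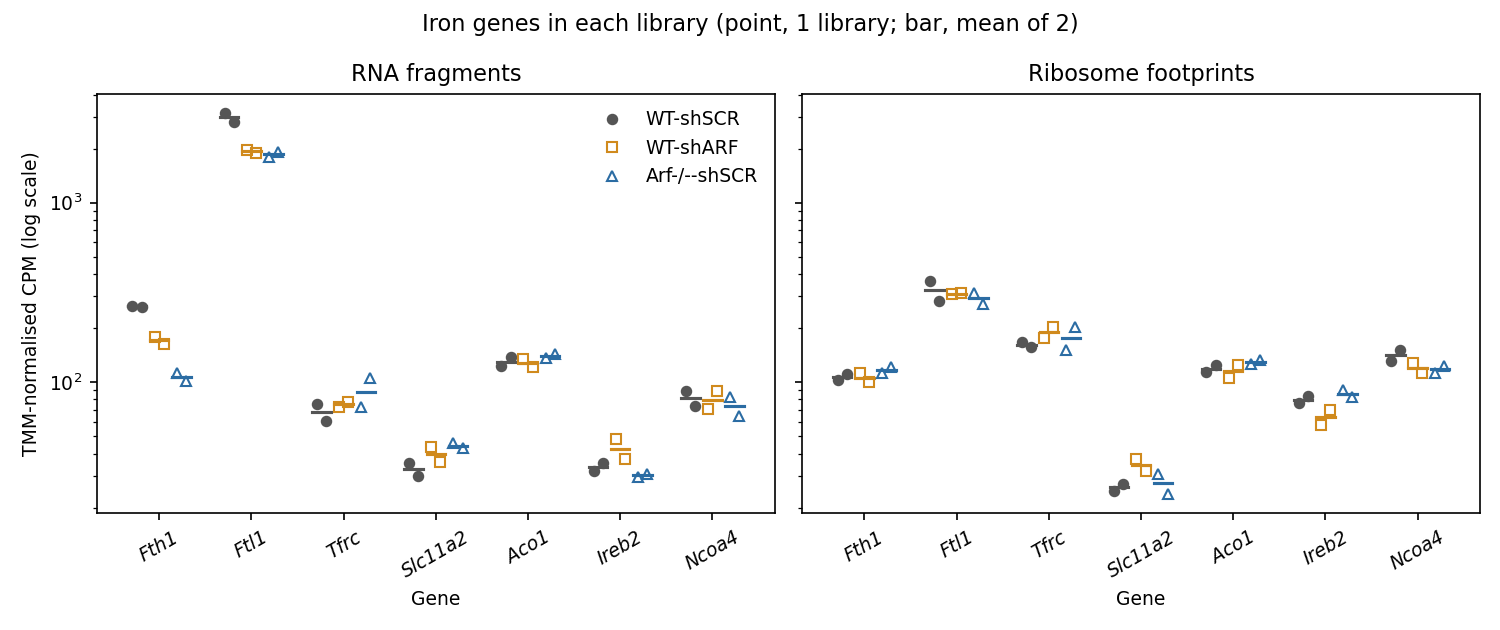
TMM-normalised CPM (log axis) of the 7 tested members in each RNAseq library (left) and RiboSeq library (right), with 1 point per library and a bar at the mean of 2, coloured by group. Fth1 RNA steps down from 267 and 262 to 112 and 102 CPM and Ftl1 RNA from 3177 and 2819 to 1805 and 1918 CPM between WT-shSCR and Arf-/--shSCR MEFs, while Fth1 footprints lie between 100 and 121 CPM and Ftl1 footprints between 273 and 365 CPM.

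The ratio of counted Fth1 to Ftl1 reads differed between RNA and footprints. For each 100 Ftl1 reads, the RNAseq libraries held 8.40 and 9.31 Fth1 reads in WT-shSCR, 9.08 and 8.66 in WT-shARF and 6.22 and 5.34 in Arf-/--shSCR MEFs. The knockout libraries were the lowest, without overlap. In RiboSeq libraries the ratio was higher in every group, at 28.2 and 39.4, 36.5 and 31.8, and 36.1 and 44.3 Fth1 reads for each 100 Ftl1 reads, and the groups overlapped. Most Ftl1 coding stretches occur in other genes, and the share of alignments that were not unique differed between the assays. The ratio therefore does not measure the balance of the chains.

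Ncoa4 encodes the receptor that carries ferritin to the lysosome, where its iron is set free. Its place is chromosome 14, plus strand, 32159865 to 32179855. Ncoa4 RNA was 89.3 and 73.7 CPM in WT-shSCR, 70.5 and 88.9 CPM in WT-shARF and 82.2 and 64.8 CPM in Arf-/--shSCR MEFs, and the groups overlapped. Its footprints were 131 and 151 CPM, 128 and 112 CPM, and 112 and 123 CPM in the same order. Both WT-shSCR libraries were the highest, yet the footprint change of -0.27 in the knockout (95% interval -0.55 to 0.0071) did not pass (adjusted p = 0.179, edgeR), nor did that of -0.24 in WT-shARF (adjusted p = 0.307, edgeR).

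Of the importers, Tfrc encodes the receptor that takes up iron bound to transferrin, with its place on chromosome 16, plus strand, 32608920 to 32632794. Tfrc RNA was 75.3 and 61.0 CPM in WT-shSCR, 73.1 and 77.7 CPM in WT-shARF and 72.6 and 105 CPM in Arf-/--shSCR MEFs. Its footprints were 167 and 156 CPM, 177 and 203 CPM, and 151 and 202 CPM. The knockout replicates spread most in both assays, with replicate 2 the higher. In the knockout, Tfrc changed by 0.35 in RNA (95% interval -0.10 to 0.81), 0.12 in footprints (-0.15 to 0.39) and -0.26 in TE (-0.81 to 0.28), none of which passed (adjusted p = 0.356, 0.604 and 0.897, edgeR). In WT-shARF its footprints were 0.24 higher (-0.0075 to 0.48, adjusted p = 0.231, edgeR), with no overlap between the groups.

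Slc11a2 encodes DMT1, which moves ferrous iron across the cell surface and out of endosomes. Its place is chromosome 15, minus strand, 100387898 to 100425072. Its RNA was 35.3 and 29.9 CPM in WT-shSCR, 43.7 and 35.7 CPM in WT-shARF and 45.8 and 42.8 CPM in Arf-/--shSCR MEFs. WT-shSCR libraries were the lowest in RNA without overlap. Footprints were 24.7 and 27.1 CPM, 37.2 and 32.0 CPM, and 30.9 and 23.8 CPM. The RNA change of 0.42 in the knockout (95% interval -0.08 to 0.92, adjusted p = 0.313, edgeR) and the footprint change of 0.41 in WT-shARF (-0.11 to 0.93, adjusted p = 0.355, edgeR) had intervals that include 0.

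Slc40a1 encodes ferroportin, the iron exporter that hepcidin controls, with its place on chromosome 1, minus strand, 45908068 to 45926523. It held 2 and 2, 1 and 8, and 1 and 4 RNAseq reads in the WT-shSCR, WT-shARF and Arf-/--shSCR libraries. Its RiboSeq reads were 0 and 1, 0 and 1, and 3 and 12 in that order, where 12 reads made 2.38 CPM. Both knockout libraries held the most footprints. Slc40a1 did not pass the filter on low counts in any comparison, and without that filter its footprint difference did not pass between the knockout and WT-shSCR or WT-shARF (adjusted p = 0.459 and 0.439, edgeR).

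Neither sensor gene had a call in any test. Aco1 encodes IRP1, which is a cytosolic aconitase when it holds an iron-sulfur cluster and binds IREs when it does not. Its place is chromosome 4, plus strand, 40143081 to 40198338. Aco1 RNA was between 122 and 143 CPM and its footprints between 105 and 132 CPM over all libraries. Its fitted log2 changes ran from -0.04 to 0.15 over the 9 tests, the narrowest range of the members, and none passed.

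Ireb2 encodes IRP2, which is degraded when iron is plentiful, with its place on chromosome 9, plus strand, 54863789 to 54912530. Its RNA was 32.0 and 35.6 CPM in WT-shSCR, 47.9 and 37.1 CPM in WT-shARF and 29.7 and 30.9 CPM in Arf-/--shSCR MEFs. Both WT-shARF libraries were above the WT-shSCR libraries and both knockout libraries below them. Its footprints were 76.0 and 83.6 CPM, 57.6 and 70.3 CPM, and 89.8 and 82.2 CPM. There both WT-shARF libraries were the lowest, and the knockout libraries overlapped with WT-shSCR. Between the knockout and WT-shARF, Ireb2 TE differed by 0.88 (95% interval 0.32 to 1.44) without passing over all genes (adjusted p = 0.362, edgeR). Its RNA differed by -0.48 and its footprints by 0.41 (adjusted p = 0.313 and 0.114, edgeR). Against WT-shSCR, its TE changed by 0.23 in the knockout and by -0.61 in WT-shARF, and neither passed (adjusted p = 0.922 and 0.742, edgeR).

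**Figure D2:**
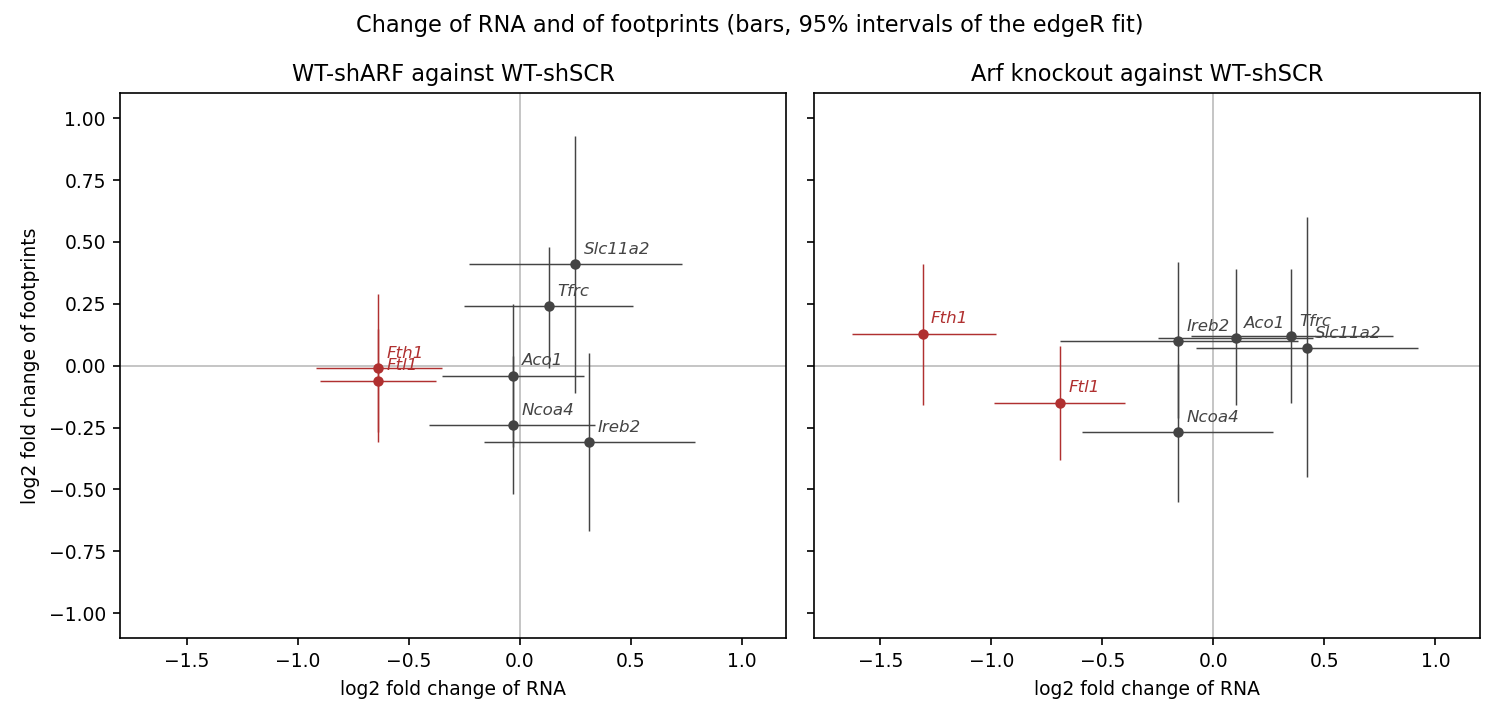
Fitted log2 fold change of footprints (vertical axis) against that of RNA (horizontal axis) for the 7 tested members, with 95% intervals of the edgeR fits, for WT-shARF (left) and the knockout (right) against WT-shSCR. Fth1 and Ftl1 (red) sit to the left, at RNA changes of -0.64 and -0.64 on one side and -1.31 and -0.69 on the other, with footprint intervals that cross 0. The Fth1 intervals in the knockout are a description, since Fth1 was chosen on its TE call in that comparison.

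Counted over the members, 7 of 8 entered each test. In the knockout, the RNA of 2 of 7 was called, where 7.93% of all genes tested were called at an adjusted p under 0.05, and the TE of 1 of 7, where 0.194% were. Both counts hold Fth1, whose values chose the members, so nothing is read from them. In WT-shARF, the RNA of 2 of 7 was called, against 7.28% of all genes, and the TE of 0 of 7, against 0.0354%. At an unadjusted edgeR p under 0.05, the WT-shARF TE of 3 members would have passed (Fth1, Ftl1 and Ireb2). So would 430 genes with higher and 321 with lower TE, of all 11289 tested. DESeq2 called 1 member (Ftl1), beside 50 of all genes, and gave no adjusted p for the other tested members. Between the knockout and WT-shARF, the RNA of 1 of 7 was called, against 2.57%, and the TE of 0 of 7, against 0.043%. There 2 members (Fth1 and Ireb2) had an unadjusted edgeR p under 0.05 in TE, beside 431 higher and 449 lower of 11632 genes. DESeq2 called 1 (Fth1), beside 18 of all genes. The RNA counts of these 2 comparisons hold Fth1 as well. They use the WT-shSCR or the knockout libraries that chose it, so nothing is read from them either.

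Footprints gave 0 calls by edgeR and 0 by DESeq2 in each of the 3 comparisons, while 18.5% of all genes were called in the knockout against WT-shSCR, 11.1% in WT-shARF against WT-shSCR and 8.23% in the knockout against WT-shARF. At an unadjusted edgeR p under 0.05, the count was 0, 0 and 1 (Ireb2), with no p given for Fth1 in the first. All genes gave 1623 higher and 1594 lower of 10737, 1227 and 1193 of 10307, and 1152 and 1146 of 10941. DESeq2 called the footprints of 1305, 789 and 667 of all genes. The median log2 fold change of the members in the knockout was -0.16 for RNA, 0.10 for footprints and -0.02 for TE, beside medians of -0.0038, -0.00087 and -0.04 over all genes tested. In WT-shARF the members' medians were -0.03, -0.04 and 0.12, beside -0.0012, -0.0028 and 0.0065.

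Per kilobase of coding sequence, the members spanned a wide range of levels. In WT-shSCR MEFs, mean RNA was 5431 CPM per kilobase for Ftl1, 467 for Fth1, 48.9 for Aco1, 41.4 for Ncoa4, 28.9 for Tfrc, 17.5 for Slc11a2, 11.4 for Ireb2 and 0.587 for Slc40a1. No neighbours in this order overlapped between their libraries. The order of footprints was Ftl1 at 586 CPM per kilobase, Fth1 at 189, Ncoa4 at 71.7, Tfrc at 68.5, Aco1 at 44.7, Ireb2 at 26.9, Slc11a2 at 13.9 and Slc40a1 at 0.116. There Ncoa4 and Tfrc overlapped. Ftl1 was at the 99.9th percentile in RNA and the 96.9th in footprints of 7975 genes.

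Among the reads counted, the ferritin mRNAs had few footprints for their RNA in WT-shSCR MEFs. Most coding stretches of Ftl1 and Ncoa4 occur in other genes, and reads that fit several places were not counted. The TE levels and ranks of these genes are therefore uncertain. The log2 TE of Ftl1 was -3.21 in WT-shSCR, -2.63 in WT-shARF and -2.67 in Arf-/--shSCR MEFs, and the share of 8223 genes with a lower TE was 0.620%, 0.912% and 1.09%. Fth1 moved from -1.31 (5.93% of genes lower) to -0.69 (18.4%) and 0.12 (54.2%). The ranges over the 4 pairings of RNAseq and RiboSeq libraries in a group did not overlap for Fth1, at -1.38 to -1.24, -0.84 to -0.54 and 0.01 to 0.24. Tfrc, at 1.24, 1.33 and 0.99, and Ncoa4, at 0.79, 0.60 and 0.68, had more footprints than RNA throughout. Ireb2 was at 1.24, 0.59 and 1.51, Aco1 at -0.13, -0.15 and -0.11 and Slc11a2 at -0.33, -0.20 and -0.70.

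**Figure D3:**
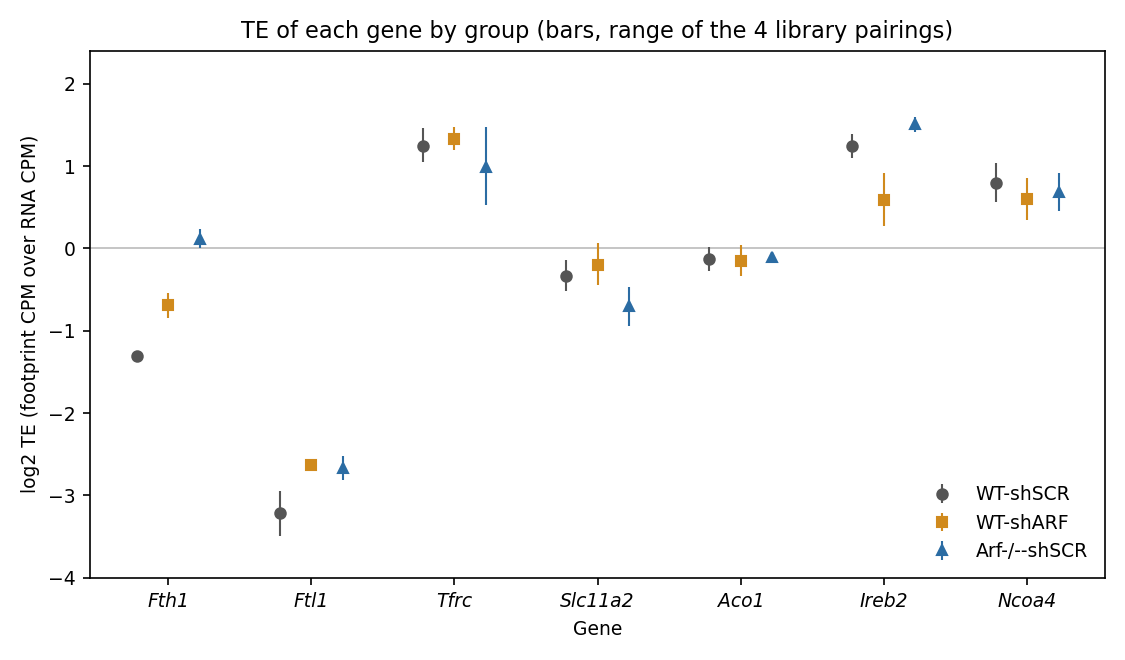
log2 TE (vertical axis) of the 7 tested members in the 3 groups, with bars for the range over the 4 pairings of RNAseq and RiboSeq libraries. Fth1 climbs from -1.31 to 0.12 between WT-shSCR and Arf-/--shSCR MEFs, while Ftl1 stays below -2.5 in every group and Aco1 stays near -0.13.

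Macrophages are rich in ferritin. Their summed marker RNA and the RNA of both ferritin genes were lower in both other groups than in WT-shSCR MEFs. Fth1 RNA, like the summed markers, was lower again in the knockout than in WT-shARF, while Ftl1 RNA overlapped. Ftl1 RNA stood at 65.7% and 63.1% of the WT-shSCR mean in WT-shARF and at 60.2% and 64.0% in the knockout. Relative to the WT-shSCR mean, summed macrophage marker RNA was 50.7% and 39.4% in WT-shARF and 9.29% and 16.0% in Arf-/--shSCR MEFs, beside 67.6% and 61.9%, and 42.4% and 38.7%, for Fth1 RNA. Summed marker footprints fell alike, to 49.6% and 40.1% and to 7.40% and 9.30%, while Fth1 footprints were at 93.5% to 113% and Ftl1 footprints at 84.3% to 97.0% in the same libraries. In the knockout, 14 of 16 tested markers were called lower in RNA and 16 of 17 in footprints, beside 3.99% and 8.95% of all genes, and Aif1 was at 0 in the knockout RNAseq libraries. The most abundant were Lyz2 (lysozyme), at 211 and 242 CPM of RNA in WT-shSCR and 10.7 and 18.6 CPM in the knockout, Csf1r (the receptor for a macrophage growth factor), at 99.2 and 103 against 7.86 and 9.31 CPM, and Itgam (an integrin chain), at 67.6 and 47.0 against 20.4 and 30.5 CPM. Markers of mesothelium and epithelium went the other way, summing to 94.5 and 95.9 CPM of RNA in WT-shSCR and 162 and 182 CPM in the knockout. The part of these cells in the ferritin values was not tested, and in bulk samples fewer cells of a type and less RNA per cell cannot be told apart.

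**Figure D4:**
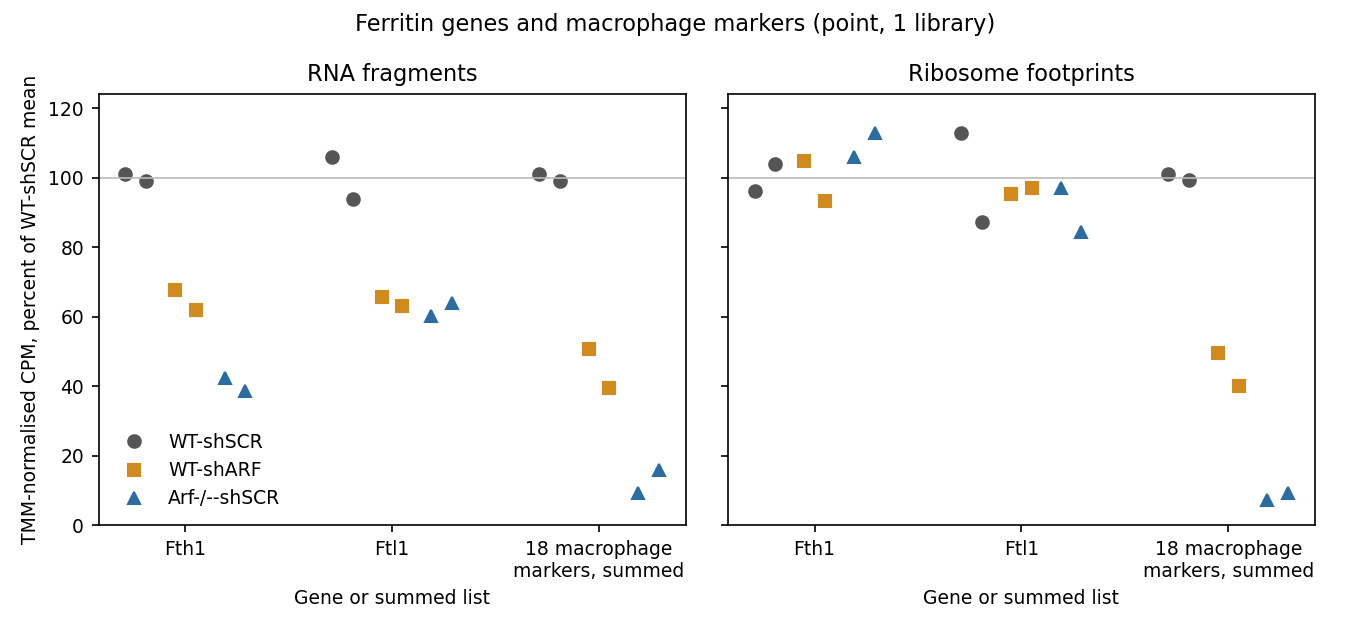
TMM-normalised CPM as a percent of the WT-shSCR mean (vertical axis, from 0) for Fth1, Ftl1 and the sum of 18 macrophage markers, with 1 point per library, for RNA (left) and footprints (right). Marker footprints drop to 7.40% and 9.30% in Arf-/--shSCR MEFs, where Fth1 footprints are at 106% and 113%.

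Other genes of iron handling were read from lists of uptake, storage, export, heme, mitochondrial iron and IRP turnover genes, and 53 of 55 were in the files. At least 1 call was made for 8 of them. In the knockout, 3 of 37 tested were called in RNA and 6 of 39 in footprints, beside 7.93% and 18.5% of all genes. In WT-shARF the counts were 2 of 38 and 6 of 37, beside 7.28% and 11.1%. Set against each other, the knockout and WT-shARF gave 1 of 41 called in footprints and 0 of 38 in RNA by edgeR, beside 8.23% and 2.57% of all genes. In RNA, 7 had an unadjusted edgeR p under 0.05, beside 851 higher and 889 lower of 10632 genes. DESeq2 called 1 (Fbxl5), beside 193 of all genes. By role, the knockout footprint calls were 2 of 6 uptake genes and 1 of 13 heme genes, all lower, 1 of 2 iron chaperones and 1 of 9 mitochondrial genes, both higher, and 1 of 4 other IRE transcripts, lower. None of the 4 IRP turnover genes was among them. The mitochondrial call was Lyrm4, which passed the filter on low counts only through the knockout libraries. The median log2 fold change over the tested genes was -0.11 for RNA and 0.05 for footprints in the knockout, and -0.25 and -0.03 in WT-shARF. Slc39a14, a metal importer that carries iron not bound to transferrin, fell in both comparisons. Its RNA was 83.8 and 139 CPM in WT-shSCR, 33.1 and 40.1 CPM in WT-shARF and 71.5 and 36.8 CPM in Arf-/--shSCR MEFs. Its log2 fold change in WT-shARF was -1.56 for RNA and -1.69 for footprints (adjusted p = 1.16e-05 and 2.09e-07, edgeR), and -1.01 and -1.26 in the knockout (adjusted p = 0.0255 and 4.82e-06, edgeR). The knockout RNA change was -0.61 without Arf-/--shSCR replicate 2 and -0.63 without WT-shSCR replicate 2 (adjusted p = 0.131 and 0.394, edgeR). Trf, the gene of transferrin, had footprints of 29.7 and 21.5 CPM in WT-shSCR, 10.9 and 8.68 CPM in WT-shARF and 5.15 and 8.91 CPM in the knockout. They fell by log2 fold changes of -1.40 and -1.87 (adjusted p = 0.00798 and 0.000284, edgeR), and Trf RNA fell in the knockout by -1.20 (adjusted p = 0.0443, edgeR).

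Hmox1, the heme oxygenase that frees iron from heme, stood at 239 and 210 CPM of footprints in WT-shSCR, 164 and 169 CPM in WT-shARF and 90.6 and 116 CPM in Arf-/--shSCR MEFs. Its footprints fell by -0.43 in WT-shARF and -1.13 in the knockout (adjusted p = 0.0103 and 1.41e-07, edgeR), and they differed by -0.70 between the knockout and WT-shARF (adjusted p = 0.00179, edgeR). Hmox1 RNA was 92.6 and 107 CPM in WT-shSCR and 36.8 and 71.5 CPM in the knockout, a change of -0.89 (adjusted p = 0.0314, edgeR) that was -0.48 without Arf-/--shSCR replicate 1 (adjusted p = 0.286, edgeR). Of the other heme genes, Blvrb, a biliverdin reductase, fell in footprints in WT-shARF by -1.27 (adjusted p = 0.0271, edgeR), and Slc48a1, a heme transporter, fell there in RNA by -1.06 (adjusted p = 0.0199, edgeR).

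Pcbp1 and Pcbp2 encode RNA-binding proteins that also deliver iron to ferritin. Pcbp2 footprints were 316 and 318 CPM in WT-shSCR, 383 and 391 CPM in WT-shARF and 462 and 464 CPM in the knockout, without overlap. They rose by log2 fold changes of 0.28 and 0.54 (adjusted p = 0.0417 and 6.56e-05, edgeR), while Pcbp2 RNA changed by 0.14 and -0.14 and did not pass. The Pcbp1 footprint change of 0.26 in the knockout missed the threshold (adjusted p = 0.0596, edgeR). Lyrm4, a helper of iron-sulfur cluster assembly, had 1 and 2 footprint reads in WT-shSCR against 27 and 23 in the knockout. It passed the filter on low counts only through the knockout libraries, and its call was lost without any 1 of the 4 libraries. Pfn2, an actin-binding gene with a reported IRE, fell in footprints by -0.68 in WT-shARF and -1.06 in the knockout (adjusted p = 0.0326 and 0.000276, edgeR).

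Of the 18 calls over these 53 genes, 16 were lost without 1 of the libraries and 2 were kept throughout, those of Slc39a14 in WT-shARF. All 6 footprint calls in the knockout were lost without either WT-shSCR replicate, as was every other footprint call of that comparison, and so were the 3 RNA calls. In TE, 0 of 40 tested pathway genes in the knockout and 0 of 41 in WT-shARF were called by edgeR, beside 0.194% and 0.0354% of all genes. At an unadjusted edgeR p under 0.05 the counts were 2 and 6, beside 326 higher and 447 lower of 11314 genes and 430 and 321 of 11289. DESeq2 called 1 (Pcbp2) and 0, beside 75 and 50 of all genes. Between the knockout and WT-shARF the TE count was 0 of 42, beside 0.043% of all genes. At an unadjusted edgeR p under 0.05 it was 7, beside 431 higher and 449 lower of 11632 genes. By DESeq2 it was 0, beside 18 of all genes. Lower against higher fitted RNA changes numbered 22 and 15 in the knockout and 25 and 13 in WT-shARF. The median RNA change over all genes tested was -0.0038 and -0.0012, and the directions were not tested as a set.

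Of the regulators, Fbxl5, the iron-sensing adaptor that marks IRP2 for decay, changed by 0.12 in RNA and 0.25 in footprints in the knockout (adjusted p = 0.773 and 0.450, edgeR), and neither passed. Fbxl5 RNA was 2190 and 1349 CPM in WT-shSCR and 1686 and 2182 CPM in the knockout. Its footprints were 39.0 and 34.7 CPM, and 49.9 and 38.4 CPM. Whether RNA counts so far above the footprints measure Fbxl5 mRNA was not tested. Epas1, the HIF2 alpha gene with an IRE in its 5′ UTR, had at most 7 RNAseq reads in a library, too few to read its TE.

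The genes most like Fth1 over the 12 libraries were sought with Pearson's r of log2 CPM centred within each assay, over 7491 genes. The highest were Cherp (0.953), Ppil2 (0.936), Tmsb10 (0.918), Copz1 (0.880) and Cyb5r3 (0.878). Ftl1 came at rank 99 with 0.744, and Tfrc stood at -0.554. The genes most like Tfrc were Mlst8 (0.922), Mtx1 (0.899), Slc3a2 (0.890), Ccdc137 (0.880) and Ndufb3 (0.875). Of these, Tmsb10 (thymosin beta 10, which binds actin monomers) had mean RNA of 340, 227 and 203 CPM and footprints of 595, 576 and 645 CPM, each over WT-shSCR, the WT-shARF libraries and the knockout. The points share libraries and scaling factors, so r is a description.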

How the data were processed

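Reads per gene were measured in 12 libraries. Per the labels and the study's methods, the authors trimmed adapters and molecular identifiers, removed rRNA reads, aligned to mm10 with TopHat and counted coding reads with HTSeq, and deposited raw counts. The submitters' processing notes also name UMI-tools, cutadapt and Bowtie2. Removal of duplicates by molecular identifier is not given in the sources used here. RNA was cut by alkaline hydrolysis and footprints by RNase T1, both sized to 17 to 34 nt. Of the alignments, 79.2 to 81.4% in RNAseq and 46.3 to 52.9% in RiboSeq libraries were not unique and not counted. Rows that name no gene were left out of library sizes.

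These counts were fitted with edgeR 4.0.16 under R 4.3.3 (TMM factors, filterByExpr, two-sided quasi-likelihood F tests, Benjamini-Hochberg over all genes tested, threshold 0.05), with RNA and footprints over 4 libraries each and TE, as an assay by condition term, over 8. The scripts were tested on simulated data. Alternatives were DESeq2 1.42.0, RLE factors, TMM without 5′-TOP genes, no filter, a floor of 10 counts in each library, 1 fit of all groups, the replicate number as a block and each library left out. Positions, stem-loops and coding lengths came from GENCODE M21 on GRCm38, and start sites from RefSeq. TE levels used 8223 genes with at least 10 counts in all libraries. Members, lists and tests were chosen with earlier results of these data known. Named were all members, every listed iron gene with a call, Fbxl5, Hmox1, Pcbp1 and Epas1, the 5 genes most like Fth1 and Tfrc, the 3 most abundant macrophage markers and, after its values were seen, the Tmsb10 level. One further gene of the rule is not reported here.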

Additional observations from a re-analysis of the deposited data

Results flagged for a closer look

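Fth1 RNA was flagged because its change differed between the groups that lack ARF or carry the shRNA against it. It differed by -0.68 on the log2 scale between the knockout and WT-shARF MEFs, lower in the knockout (edgeR adjusted p = 0.0247), in 2 of 2 libraries, and the call was lost without WT-shARF replicate 1 or replicate 2. Fth1 was chosen on values of these knockout libraries, so this test is not independent of that choice.

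Ireb2 RNA was flagged because the groups lay on opposite sides of WT-shSCR. Its mean was 42.5 CPM in WT-shARF, with both libraries above WT-shSCR, and 30.3 CPM in Arf-/--shSCR MEFs, with both below. Tested directly, the knockout and WT-shARF differed by -0.48 on the log2 scale, which did not pass (edgeR adjusted p = 0.313).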

How the results depend on the processing

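A log2 fold change was counted as kept if its direction and its side of the threshold held, or its direction alone where no adjusted p was given. For Fth1 in the knockout against WT-shSCR, kept means the same direction and a move of less than 1 standard error. A lost Fth1 call is thus not in the counts below. Its TE call there was lost without WT-shSCR replicate 1, at a log2 fold change of 1.39. Over the other settings, 426 of the members' log2 fold changes were kept, 7 became calls and 8 turned, all of values near 0. Without 1 library, 210 were kept, 2 became calls, 5 lost their call and 35 turned. The depth, 242 to 726 Fth1 RNAseq reads a library and at most 12 Slc40a1 reads, limits what could be called. DESeq2's filter left no adjusted p for TE of the tested members other than Ftl1, in the knockout or in WT-shARF. The cause of the changes below was not tested, except that fewer libraries were used where one was left out.

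In the knockout against WT-shSCR, TE calls among members numbered 2 without a filter. Over all genes, TE calls numbered 75 by DESeq2, 123 without a filter, 34 with at least 10 counts in every library and 52 with all groups in 1 fit, against 22. DESeq2 called 467 genes in RNA against 845, and 1305 in footprints against 1988. In WT-shARF, TE calls among members numbered 1 by DESeq2, 1 without a filter and 1 with the replicate block. Over all genes they numbered 50 by DESeq2, 40 without a filter, 13 with at least 10 counts, 0 with all groups in 1 fit and 39 with the replicate block, against 4. RNA calls were 318 by DESeq2 and 497 with all groups in 1 fit, against 765. Between the knockout and WT-shARF, TE calls among members were 1 by DESeq2 and 1 without a filter, and over all genes 18 by DESeq2, 77 without a filter and 8 with the replicate block, against 5. RNA calls there were 617 without a filter, against 273.

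The member called in WT-shARF TE under these settings was Ftl1 (adjusted p = 0.0153 without a filter and 0.00771 with the replicate block, edgeR). Ftl1 also passed in the knockout without a filter (adjusted p = 0.00486), and Fth1 between the knockout and WT-shARF without a filter (adjusted p = 0.0232) and without Arf-/--shSCR replicate 1 (adjusted p = 0.0375, edgeR). Deviations of libraries with the same replicate number correlated at -0.081 to 0.052 over 8223 genes, so the numbers were not shown to pair the libraries.

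Aco1 TE in the knockout turned to 0.01 by DESeq2, 0.01 with RLE factors, 0.11 without a filter and 0.05 with all groups in 1 fit. In WT-shARF it turned to -0.0046 with at least 10 counts and -0.0046 with the replicate block, and between the knockout and WT-shARF to -0.02 with at least 10 counts. Ftl1 TE turned there to 0.0069 without a filter.

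Leaving out each library in turn moved the counts of members called as follows. In the knockout they ran from 0 to 1 in TE and 1 to 2 in RNA, in WT-shARF from 0 to 1 in TE and 0 to 2 in RNA, and for the knockout against WT-shARF from 0 to 1 in TE and 0 to 1 in RNA. Over all genes, knockout calls ran from 6 to 51 in TE, 222 to 790 in RNA and 0 to 1193 in footprints, where the 0 came without either WT-shSCR replicate. In WT-shARF they ran from 7 to 24, 274 to 883 and 614 to 1067. For the knockout against WT-shARF they ran from 1 to 125, 6 to 798 and 0 to 781, where the 0 came without WT-shARF replicate 1.

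Among log2 fold changes in the knockout, the ranges were -0.03 to 0.07 for Aco1 TE, -0.34 to 0.11 for Ncoa4 TE, -0.35 to 0.0026 for Ncoa4 RNA, -0.78 to -0.60 for Ftl1 RNA, -0.31 to 0.06 for Ftl1 footprints, -0.10 to 0.32 for Tfrc footprints and -0.12 to 0.26 for Slc11a2 footprints. In WT-shARF they were -0.11 to 0.04 for Aco1 RNA, -0.22 to 0.18 for Aco1 TE, -0.17 to 0.07 for Aco1 footprints, -0.68 to -0.57 for Fth1 RNA, -0.10 to 0.08 for Fth1 footprints, -0.73 to -0.54 for Ftl1 RNA, 0.48 to 0.69 for Ftl1 TE and -0.23 to 0.13 for Ftl1 footprints. There Ncoa4 ranged over -0.22 to 0.14 in RNA and -0.46 to 0.08 in TE, Slc11a2 over -0.04 to 0.32 in TE, and Tfrc over -0.0061 to 0.32 in RNA and -0.01 to 0.17 in TE. Between the knockout and WT-shARF, the ranges were -0.14 to 0.23 for Aco1 TE, -0.75 to -0.62 for Fth1 RNA, 0.75 to 0.93 for Fth1 TE, -0.18 to 0.15 for Ftl1 TE, -0.33 to 0.05 for Ncoa4 RNA, -0.19 to 0.36 for Ncoa4 TE, -0.15 to 0.06 for Ncoa4 footprints, -0.07 to 0.46 for Tfrc RNA and -0.35 to 0.07 for Tfrc footprints.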
